A study of Homo sapiens with 10 samples.

Results

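REST, its corepressors RCOR1, RCOR2 and SIN3A, and the splicing regulator SRRM4 form a small circuit around neuronal gene repression. These 5 genes were taken as listed, out of 20033 protein-coding genes in the annotation. REST is a zinc finger protein that binds a DNA motif, the REST element, near many neuronal genes and silences them outside neurons. It recruits the CoREST complex, whose scaffold is RCOR1 or its paralog RCOR2, and the SIN3 histone deacetylase complex, whose scaffold is SIN3A. SRRM4 is a neural splicing factor that adds an alternative exon to REST transcripts, which yields a truncated protein with little repressor function, and SRRM4 is itself known as a target of REST. In prostate cancer, this circuit is studied because loss of REST function accompanies the neuroendocrine state.

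The data were ChIP-Seq peaks of 2 histone marks in 2 established cell lines. C4-2B is a human prostate adenocarcinoma line, and C4-2BER is an enzalutamide-resistant line with neuroendocrine-like features that the study derived from C4-2B by continuous exposure to the drug. The study describes C4-2BER as lacking the androgen receptor and as having lost RB1, and whether it is a single clone is not given in the sources used here. Histone H3 acetylated at lysine 27 (H3K27ac) or at lysine 18 (H3K18ac) marks active promoters and enhancers. There were 2 libraries of each mark in each line and 1 input library per line, and the authors merged the libraries of a mark and line before calling peaks. Each value below therefore stands for 1 pool, has no replicate error and could not be tested, and the depth behind it is unknown. In a pool of cells, a mark on fewer cells and less of the mark on each cell cannot be told apart. Fold enrichment is the ChIP signal of a peak over the background around it, and is not scaled between lists. A ratio of the lines thus includes any difference in their backgrounds. For that reason each ratio is set beside the same ratio over all promoters. Promoter peaks of the luminal markers KLK3, KLK2, TMPRSS2, HOXB13 and FOLH1 were found in both lines for both marks. Among neuroendocrine markers, ENO2 had a higher H3K27ac promoter value in C4-2BER (4.00 and 14.3) and SYP a lower one (8.16 and 5.67), while CHGA, INSM1 and NCAM1 had no H3K27ac promoter peak in either line. The log2 ratio of C4-2BER to C4-2B for SYP was −0.53, near the median of −0.50 over all promoters with a peak in both lines.

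All peaks over each gene body and 50 kb to each side were collected. This gave 330 peaks of 537404 in the 4 lists, 159 of them over the gene bodies. For H3K27ac the 5 loci held 55 peaks in C4-2B and 59 in C4-2BER, and for H3K18ac they held 123 and 93. As the promoter value, the highest fold enrichment was taken among peaks between 2000 bp upstream and 500 bp downstream of any annotated TSS, and a promoter was counted as increased or decreased with a peak in 1 line only or a ratio of at least 2.

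The promoters of REST, RCOR1 and SIN3A ranked high for both marks in both lines and had lower fold enrichment in C4-2BER. So did most promoters with a peak in both lines, of which 12.2% were higher in C4-2BER for H3K27ac and 15.1% for H3K18ac. The RCOR2 promoter was moderate and close to equal in the lines, and the SRRM4 promoter had no H3K27ac peak in either. None of the 5 promoters was counted as increased for either mark, against 3.49% of all protein-coding genes for H3K27ac and 1.92% for H3K18ac. None was counted as decreased for H3K27ac, against 8.27% of all genes, and 1, SRRM4, was counted as decreased for H3K18ac, against 5.25%.

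**Figure D1:**
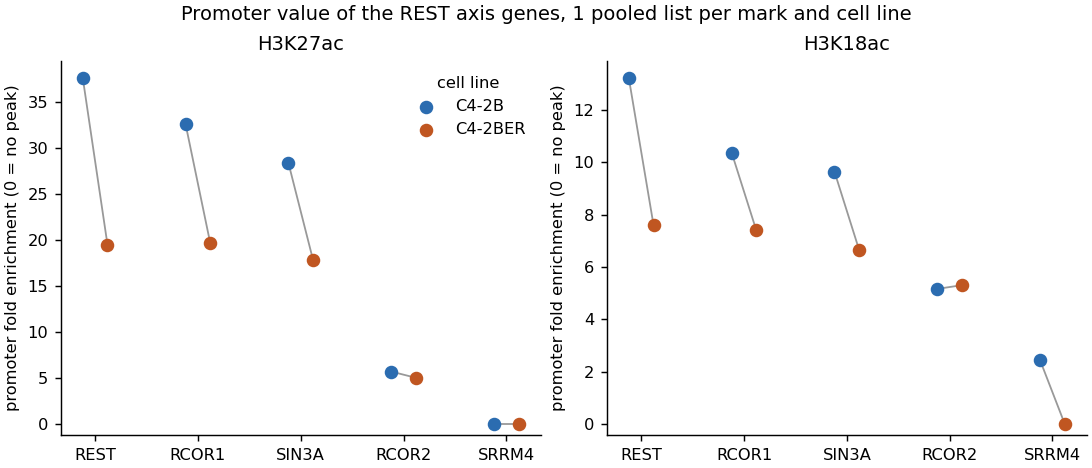
Promoter value (fold enrichment, 0 where no peak was called) of the 5 genes for H3K27ac (left) and H3K18ac (right), with 1 point per pooled peak list of C4-2B (blue) and C4-2BER (orange) and a line joining the points of a gene. REST, RCOR1 and SIN3A were lower in C4-2BER for both marks, as were most promoters of all genes with a peak in both lines. RCOR2 differed little, and SRRM4 had a peak only for H3K18ac in C4-2B.

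REST lies on the plus strand at chr4:56907876-56966808 (GRCh38, ENSG00000084093.19), with 7 annotated TSSs and 4 exons in the canonical transcript. Its promoter lies in CG-rich sequence. The 250 bases before the RefSeq start, at chr4:56907650-56907899, are shown because the H3K27ac peak over the start was the strongest of the locus in C4-2B, with each CG dinucleotide in capitals.
REST promoter: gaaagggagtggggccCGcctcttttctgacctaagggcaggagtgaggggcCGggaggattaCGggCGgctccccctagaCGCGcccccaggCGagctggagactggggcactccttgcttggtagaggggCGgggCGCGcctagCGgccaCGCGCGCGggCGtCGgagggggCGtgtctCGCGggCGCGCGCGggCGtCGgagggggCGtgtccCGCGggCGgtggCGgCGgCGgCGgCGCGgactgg
The RefSeq promoter window of 300 bases, which runs 50 bases past the start, had 44 CG dinucleotides and a GC content of 76.0%, above those of 95.8% and 92.2% of the 35116 RefSeq promoters.

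The H3K27ac peak over the REST start had a fold enrichment of 37.6 in C4-2B and 19.5 in C4-2BER. In C4-2B this was above 98.7% of all protein-coding promoters, and in C4-2BER above 93.7%. The H3K18ac peak there had values of 13.2 and 7.61, above 97.0% and 85.4% of promoters. REST thus stayed among the more strongly marked promoters in C4-2BER, at a lower rank for both marks. On the log2 scale, the ratio of C4-2BER to C4-2B was −0.95 with H3K27ac and −0.80 with H3K18ac. The median over all promoters with a peak in both lines was −0.50 for H3K27ac (14304 genes) and −0.33 for H3K18ac (16702 genes). Lower ratios than that of REST were found for 10.7% of these genes with H3K27ac and for 6.77% with H3K18ac. High promoters had lower ratios in general. Among the 1046 genes whose C4-2B H3K27ac value was within 1.2 times that of REST, the median ratio was −0.79, with most between −1.29 and −0.42 (5th and 95th percentile), and 27.3% lay below REST. Among the 2080 such genes for H3K18ac, the median was −0.58 and 19.5% lay below REST.

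The H3K27ac peak over the start also differed in shape. It was 2178 bp wide in C4-2B (chr4:56907531-56909708) and 3654 bp wide in C4-2BER (chr4:56907166-56910819), where it reached into exon 2, which holds the start codon. The product of fold enrichment and width gave a log2 ratio of −0.20 in place of −0.95, and the mean fold enrichment over the promoter windows gave −1.06, which would count the promoter as decreased. The H3K18ac peaks were nearly the same width, with 2482 and 2555 bp, and their product gave −0.75. The difference between the lines was thus smaller for H3K27ac when the width was counted, and close to the same for H3K18ac.

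Around the most downstream TSS of REST, 4683 bp from the canonical one, further peaks of both marks were called in C4-2BER alone. The H3K27ac peak in intron 2 had a fold enrichment of 2.43 (chr4:56911884-56912937), and the H3K18ac peak had one of 2.23 (chr4:56912504-56914079). Both were weak beside the peak over the start.

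Away from promoters, several regions of the REST locus had slightly higher values in C4-2BER. A region 33.1 kb upstream of the TSS had H3K27ac values of 5.77 in C4-2B and 6.13 in C4-2BER, and one 22.8 kb upstream had 5.81 and 6.40. The second had H3K18ac values of 4.43 and 5.00. The first overlapped a pair of H3K18ac regions, of which 1 was lower in C4-2BER (4.30 and 4.02) and 1 higher (2.66 and 3.62). A region 23.1 kb downstream, within exon 4, had H3K27ac values of 3.75 and 5.38 and H3K18ac values of 3.24 and 3.91. Exon 4 holds the last coding part of REST. The central 200 bases of its C4-2BER H3K27ac peak, at chr4:56930914-56931113, are shown as the site with the highest ratio among the shared H3K27ac regions of the locus, in capitals because all of them are exonic.
REST exon 4 site: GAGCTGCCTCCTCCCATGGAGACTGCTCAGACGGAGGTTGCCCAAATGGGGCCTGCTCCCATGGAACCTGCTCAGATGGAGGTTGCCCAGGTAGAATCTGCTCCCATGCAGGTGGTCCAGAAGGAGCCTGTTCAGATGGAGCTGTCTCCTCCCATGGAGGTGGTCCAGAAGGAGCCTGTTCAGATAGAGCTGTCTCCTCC
Of 7 shared H3K27ac regions of the locus off promoters, 5 were higher in C4-2BER, with a median log2 ratio of 0.14. The upstream regions and the exon 4 region above were among the 5. The others lay over the neighbour POLR2B and were below 4-fold enrichment in both lines. Further shared regions over POLR2B were lower in C4-2BER. Of 6 shared H3K18ac regions off promoters, 3 were higher, with a median of 0.04. Among all shared regions of the genome, on and off promoters, 36.2% were higher for H3K27ac and 32.6% for H3K18ac. The neighbouring divergent promoter of NOA1, a mitochondrial GTPase, and POLR2B, a subunit of RNA polymerase II, had H3K27ac values of 24.6 and 21.6. In number, the locus held 10 and 13 H3K27ac peaks in C4-2B and C4-2BER, and 17 and 11 H3K18ac peaks.

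**Figure D2:**
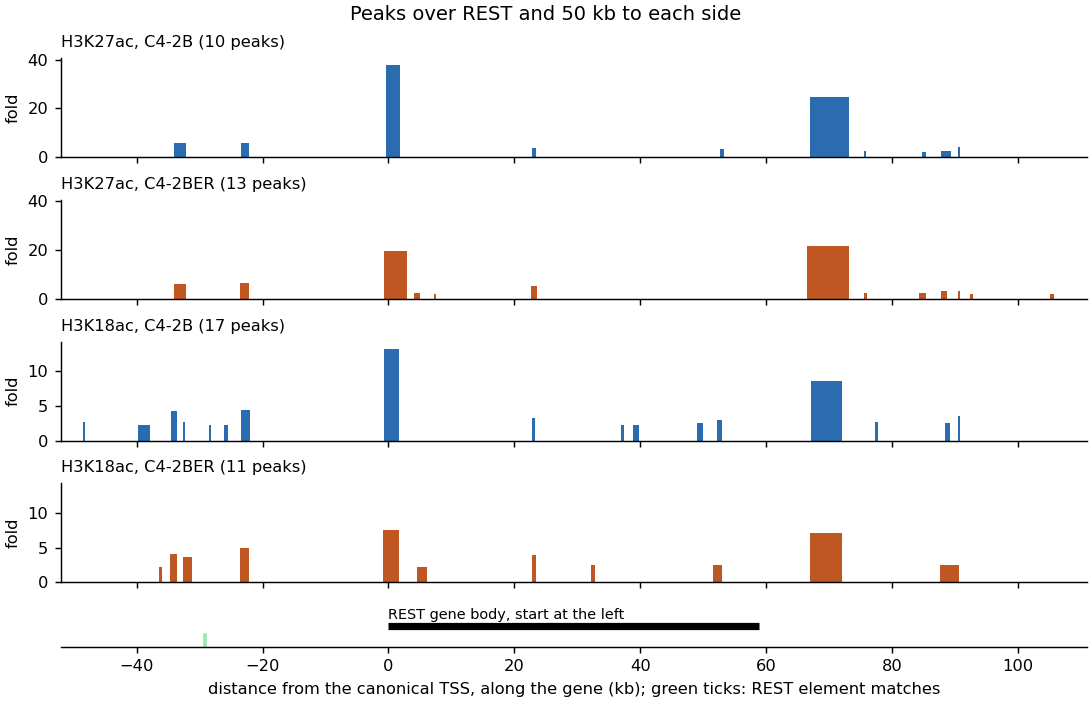
Peaks of the 4 lists over REST and 50 kb to each side, drawn at their distance from the canonical TSS along the gene (kb), with the fold enrichment as height and the peak's width as width, at the same height scale for both lines of a mark. The peak over the start was 37.6 in C4-2B and 19.5 in C4-2BER for H3K27ac, while the H3K27ac sites 33.1 and 22.8 kb upstream and in exon 4 were higher in C4-2BER, and the green tick is a match to the REST element with 3 differing letters.

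RCOR1, the main scaffold of the CoREST complex, which links REST to the demethylase KDM1A and to HDAC1 and HDAC2, lies at chr14:102592649-102730561 on the plus strand (ENSG00000089902.10). Its promoter had H3K27ac values of 32.6 in C4-2B and 19.6 in C4-2BER, a log2 ratio of −0.73, and H3K18ac values of 10.4 and 7.40, a ratio of −0.49. Lower ratios were found for 26.3% and 31.0% of all promoters. Against genes of similar C4-2B level, RCOR1 lay near the middle, with 53.5% below it for H3K27ac and 52.3% for H3K18ac. Off the promoter, the strongest site of the gene body lay 133.7 kb from the TSS and overlapped exon 12, the last exon. It had H3K27ac values of 11.6 and 8.33 and H3K18ac values of 6.80 and 4.84. An intron 3 site 98.4 kb from the TSS was the only 1 of 5 shared H3K27ac regions off promoters that was higher in C4-2BER, with 4.07 and 5.58. H3K18ac covered the locus broadly, with 52 peaks in C4-2B and 47 in C4-2BER over 91.3 and 95.5 kb of its 237.9 kb. The promoter of the neighbour TRAF3, an adaptor of immune signalling, had H3K27ac values of 19.0 and 17.1.

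RCOR2, a paralog of RCOR1, is a short gene on the minus strand at chr11:63911230-63917164 (ENSG00000167771.6). Its promoter had H3K27ac values of 5.71 in C4-2B and 5.03 in C4-2BER, and H3K18ac values of 5.17 and 5.31. The log2 ratios of −0.18 and 0.04 were above those of 79.4% and 87.3% of all promoters. Among the 561 genes of similar C4-2B H3K27ac level, the median ratio was −0.107, so RCOR2 lay slightly below the middle of these. Among the 2870 such genes for H3K18ac, the median was −0.164 and 75.8% lay below RCOR2. For H3K27ac, RCOR2 ranked above 36.7% of promoters in C4-2B and 36.0% in C4-2BER, so the level was well below that of its paralog in both lines. For H3K18ac its rank was 39.2% in C4-2B and 51.9% in C4-2BER. The H3K27ac peak over the start was 3197 bp wide in C4-2B and 4740 bp wide in C4-2BER, where it ran over exons 1 to 7. With width counted, the log2 ratios were 0.38 (H3K27ac) and −0.51 (H3K18ac), so the direction was not the same as for fold enrichment alone in either mark.

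Among the 5 loci, the largest ratio of covered length lay here. H3K27ac peaks covered 32.9 kb of its 105.9 kb in C4-2B and 65.6 kb in C4-2BER, a ratio of 1.99, which was above that of 88.9% of the 18354 protein-coding loci covered in both lines (median 1.21). Most of this length lay over the neighbour MARK2, a kinase of microtubule-binding proteins. There, 1 C4-2BER peak of 34454 bp (8.42) spanned several C4-2B peaks, the widest of which had 18542 bp (7.22). For H3K18ac the covered length was 54.6 and 60.5 kb. The promoter of NAA40, an N-terminal acetyltransferase on the other side, had H3K27ac values of 16.0 and 15.3.

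SIN3A, scaffold of the SIN3 histone deacetylase complex, lies on the minus strand at chr15:75369379-75455842 (ENSG00000169375.17) and has 19 annotated TSSs. A single wide peak ran over its TSS clusters in every list. For H3K27ac it was 8141 bp wide with a fold enrichment of 28.4 in C4-2B, and 9122 bp wide with 17.8 in C4-2BER. For H3K18ac the values were 9.65 and 6.65. The log2 ratios of −0.67 and −0.54 were above those of 32.0% and 25.5% of all promoters. Against genes of similar C4-2B level, 56.4% lay below SIN3A for H3K27ac and 39.7% for H3K18ac. Within the gene, sites differed in both directions. An intron 1 region 17.7 kb from the canonical TSS had H3K27ac values of 4.99 in C4-2B and 2.29 in C4-2BER, and H3K18ac values of 3.44 and 2.36. In contrast, an intron 3 region 33.6 kb from the TSS had H3K27ac values of 2.78 over 3 peaks in C4-2B and 5.21 over a single peak in C4-2BER, and H3K18ac values of 2.66 and 3.39. Another region, in intron 9 and 47.5 kb from the TSS, was nearly equal, with H3K27ac values of 6.23 and 6.50. The 3′ end of SIN3A meets a promoter of MAN2C1, a mannosidase, which had H3K27ac values of 15.7 and 10.6. The promoter of NEIL1, a DNA glycosylase, had 22.6 and 15.3, and that of COMMD4 had 17.3 and 10.5.

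SRRM4 lies on the plus strand at chr12:118981541-119163051 (ENSG00000139767.10), with 13 exons in the canonical transcript and 7 annotated TSSs. Its promoter is shown for comparison with that of REST, as the 250 bases before the RefSeq start at chr12:118981291-118981540, with each CG dinucleotide in capitals.
SRRM4 promoter: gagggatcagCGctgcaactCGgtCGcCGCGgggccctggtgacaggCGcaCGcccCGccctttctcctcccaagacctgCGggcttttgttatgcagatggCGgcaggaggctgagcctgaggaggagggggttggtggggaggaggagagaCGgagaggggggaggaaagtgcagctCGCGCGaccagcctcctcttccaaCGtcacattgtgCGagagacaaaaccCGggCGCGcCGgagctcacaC
Its RefSeq window of 300 bases had 26 CG dinucleotides and a GC content of 66.7%, above those of 69.9% and 71.4% of RefSeq promoters, so this promoter was also CG-rich, although less than that of REST.

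At its promoter, SRRM4 had acetylation at the edge of detection. No H3K27ac peak lay at any of its 7 TSSs in either line, as for 23.4% of protein-coding genes. For H3K18ac, 1 peak of 1000 bp lay over the start in C4-2B only (chr12:118980854-118981853). Its fold enrichment of 2.44 was above 23.7% of the peaks of its list, and its −log10 q-value was 1.53. An H3K18ac promoter peak in C4-2B with no other promoter peak was found for 669 protein-coding genes, or 3.34%. The genes whose 4 promoter values were most like those of SRRM4 were MMP9, SCGB1D1 and PRB2, each with an H3K18ac value of 2.44 in C4-2B and no other peak. As many as 406 genes lay within a distance of 0.1 on the log2(value + 1) scale, so these neighbours do not stand apart. For REST, 5 genes lay within that distance, the nearest being ATAD2B (0.0546) and the pair PYURF and PIGY, which share their promoter values (0.0823).

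The clearest site of SRRM4 lay near its 3′ end and was stronger in C4-2B. An H3K27ac peak of 1071 bp at chr12:119153677-119154747, over exon 12 and its flanking introns and 172.7 kb from the TSS, had a fold enrichment of 5.66 in C4-2B and no peak in C4-2BER. H3K18ac at the same site had values of 5.70 and 2.62, a log2 ratio of −1.12. The central 200 bases of the H3K27ac peak, at chr12:119154113-119154312, are shown with the 70 bases of exon 12 in capitals.
SRRM4 exon 12 site: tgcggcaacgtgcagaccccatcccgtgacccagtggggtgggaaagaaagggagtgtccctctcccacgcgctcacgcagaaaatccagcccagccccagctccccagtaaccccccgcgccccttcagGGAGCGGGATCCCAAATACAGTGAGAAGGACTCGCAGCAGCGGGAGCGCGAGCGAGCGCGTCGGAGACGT
All 7 shared H3K18ac regions of the locus were lower in C4-2BER. After rescaling by a robust line over the shared regions of the genome, 6 of 7 stayed lower. Most shared H3K18ac regions of the genome were also lower, with 32.6% higher in C4-2BER. In the locus, 7 further regions had a peak in C4-2B alone, each below 4-fold enrichment, against 1 in C4-2BER alone. The gene body itself held 3 shared regions, 4 in C4-2B alone and 1 in C4-2BER alone. The rest lay over the neighbour HSPB8. Over the genome, 23.3% of H3K18ac regions belonged to C4-2B alone and 26.1% to C4-2BER alone. H3K18ac peaks covered 12.5 kb of the locus in C4-2B and 7.94 kb in C4-2BER, a ratio of 0.634. A lower ratio was found for 13.0% of 19540 loci, whose median was 1.02. The neighbour HSPB8, a small heat shock protein, had the other H3K27ac peak of the locus on its promoter, with 7.37 and 5.92.

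**Figure D3:**
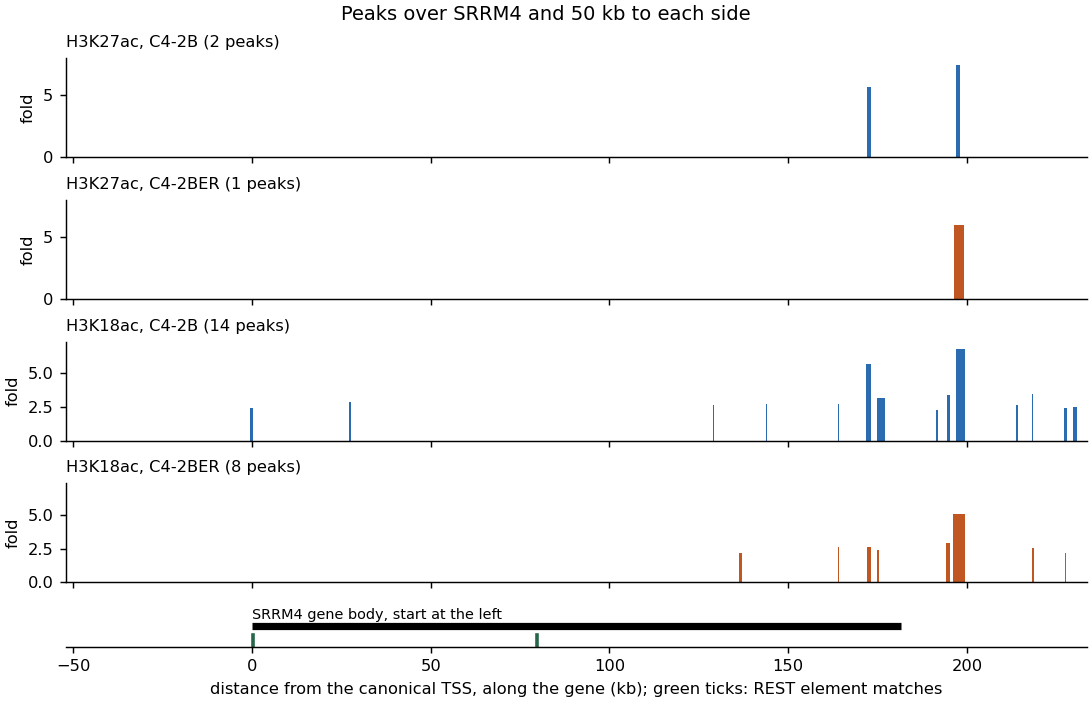
Peaks of the 4 lists over SRRM4 and 50 kb to each side, drawn as for REST by distance from the canonical TSS (kb) and fold enrichment, with matches to the REST element that differ in 1 letter as dark green ticks. The site 172.7 kb from the TSS had an H3K27ac peak of 5.66 in C4-2B only, and the peak at the start was called for H3K18ac in C4-2B only.

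SRRM4 also held the closest matches to the REST element. The element was searched as the letters TTCAGCACC, any 2 bases, and GGACAGCGC, on both strands, and the sites below are those in the 5 loci that differ in at most 1 of the 18 set letters. Capitals mark letters equal to the element, lower case marks the spacer and any other letter, and positions count from 1 at its 5′ end.
SRRM4 exon 1 site: TTCAGCACtttGGACAGCGC
SRRM4 intron 1 site: TTCAGCACCagGGACAGCGa
The exon 1 site (chr12:118981833-118981852, plus strand) lies 292 bp from the TSS, before the start codon, and carries the change C9T. It was inside the H3K18ac peak of C4-2B and under no peak of C4-2BER. The intron 1 site (chr12:119061401-119061420, plus strand) lies 79860 bp from the TSS, carries the change C20A, and was under no peak in the 4 lists. Across the genome, 212 sites matched this closely, and 37 of 20033 protein-coding loci (0.185%) held 2 or more. REST held 1 weaker match, with 3 differing letters, 29081 bp before its TSS and under no peak. RCOR1, RCOR2 and SIN3A held none with up to 3 differing letters. In the RefSeq promoter windows, entries were found for 4 of the 5 genes (REST, SRRM4, RCOR1 and SIN3A), and none held an exact TTCAGCACC or GGACAGCGC on either strand. Outside these windows, an exact GGACAGCGC lay 0.415 kb downstream of the REST TSS, on the minus strand and under a peak in all 4 lists. The SRRM4 exon 1 site above holds another. Of all 35116 RefSeq promoters, 0.376% held the first and 0.581% the second.

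The same letters were then followed across the genome. Of the 212 sites with at most 1 differing letter, 36 (17.0%) lay under an H3K18ac peak in C4-2B and 15 (7.08%) in C4-2BER. Of these, 12 lay under a peak in both lines, 24 in C4-2B alone and 3 in C4-2BER alone, the SRRM4 exon 1 site being 1 of the 24. For H3K27ac the counts were 8 and 9. The median fold enrichment of the H3K18ac peaks at these sites was 2.95 in C4-2B. When only peaks whose −log10 q-value reached 5 were used, 14 and 13 sites were covered, and with a fold enrichment of at least 4 the counts were 13 and 9. The C4-2B and C4-2BER lists were about equal in number, with 198451 and 197948 H3K18ac peaks, and covered 293 and 321 Mb of the genome. Of the 2380 sites with 3 differing letters, 23.2% lay under an H3K18ac peak in C4-2B and 19.3% in C4-2BER. The share of other sequence under these peaks was not computed, so no excess at the element can be read from these counts.

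**Figure D4:**
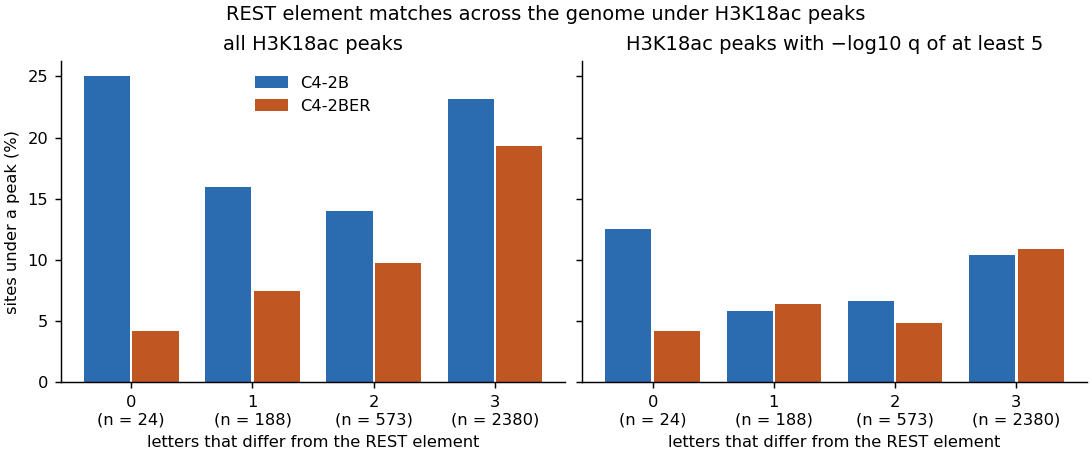
Share of REST element matches in the genome (%) that lay under an H3K18ac peak in C4-2B (blue) and C4-2BER (orange), by the number of letters that differ from the element, for all peaks (left) and for peaks whose −log10 q-value reached 5 (right). With all peaks, 6 of the 24 exact matches (25.0%) were covered in C4-2B and 1 (4.17%) in C4-2BER. With the stricter peaks, 3 (12.5%) and 1 (4.17%) were covered.

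Across the 5 loci, peaks of a mark that overlapped between the lines were merged into regions. For H3K27ac, 37 regions were shared, 21 had a peak in C4-2BER alone and 11 in C4-2B alone. The 21 were 30.4% of the 69 regions, beside 29.1% over the genome, and the 11 were 15.9%, beside 20.3%. With peaks of at least 4-fold enrichment, the order turned, with 2 regions in C4-2BER alone and 5 in C4-2B alone. With peaks whose −log10 q-value reached 5 the order was kept, with 6 and 2. For H3K18ac, 72 regions were shared, 16 had a peak in C4-2BER alone (12.8%, beside 26.1%) and 37 in C4-2B alone (29.6%, beside 23.3%). This difference rested on weak peaks. It was 2 and 2 with at least 4-fold enrichment, and 6 in C4-2BER alone and 4 in C4-2B alone where the −log10 q-value reached 5. The RCOR1 locus held 57 of the 125 H3K18ac regions. For H3K27ac, the share in C4-2BER alone was thus near that of the genome.

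Shared regions were divided into those on a promoter of any gene and the rest. For H3K27ac, 3 of 16 regions on promoters were higher in C4-2BER, with a median log2 ratio of −0.22, and 10 of 21 regions off promoters, with a median of −0.10. For H3K18ac, 4 of 19 regions on promoters were higher, and 19 of 53 off promoters, with medians of −0.22 and −0.05. After the same rescaling, the counts were 5 of 16 and 10 of 21 for H3K27ac and 6 of 19 and 30 of 53 for H3K18ac, so for H3K18ac off promoters the median turned to 0.05. Over all shared regions of the genome, 36.2% were higher in C4-2BER for H3K27ac and 32.6% for H3K18ac. The overlap of the marks was counted within each line. An H3K18ac peak of the same line overlapped 47 of 55 H3K27ac peaks in C4-2B (85.5%, beside 93.8%) and 44 of 59 in C4-2BER (74.6%, beside 92.5%). In C4-2BER, 5 of the 15 H3K27ac peaks without H3K18ac lay in the REST locus and 6 in that of SIN3A. These were weak, with fold enrichment of 2.14 to 2.53 in the REST locus and 2.18 to 2.67 in that of SIN3A. Those of the REST locus lay over POLR2B, apart from a peak in intron 2 of REST. Some of those in the SIN3A locus lay outside SIN3A.

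**Figure D5:**
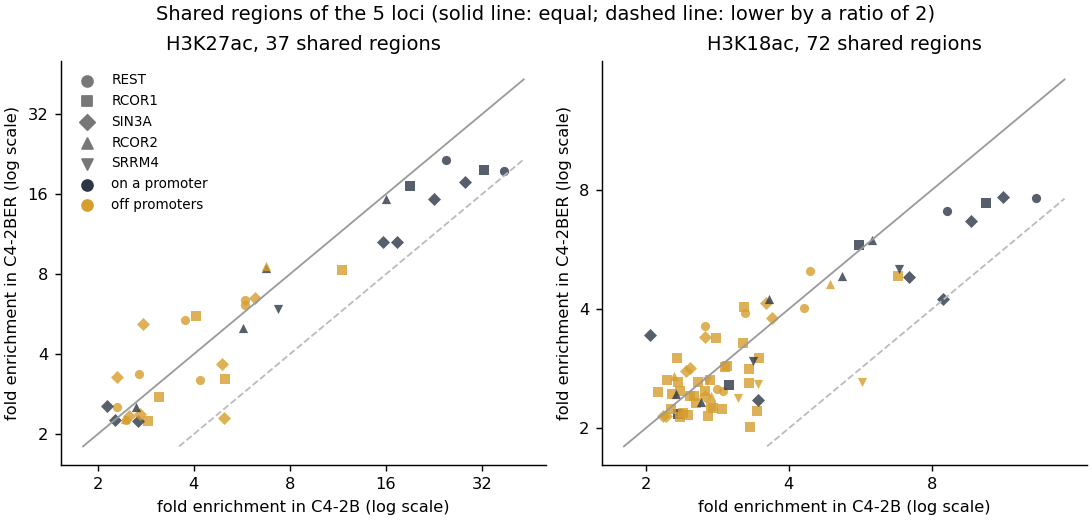
Fold enrichment in C4-2B (x axis) and C4-2BER (y axis), both on log scales, of the regions of the 5 loci with a peak in both lines, for H3K27ac (left, 37 regions) and H3K18ac (right, 72 regions), with a symbol per locus. Regions on a promoter (dark) with high values lie below the line of equal values, while regions off promoters (yellow) lie on both sides of it.

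The wider circuit was described from 5 lists with 63 genes. None of the 63 had an increased promoter for either mark, beside 3.49% of all genes for H3K27ac and 1.92% for H3K18ac. A decreased promoter for at least 1 mark was found for 7. By mark, 5 (7.94%) were decreased for H3K27ac, beside 8.27% of all genes, and 2 (3.17%) for H3K18ac, beside 5.25%, so these shares were near or below those of all genes. Of 10 CoREST partners, HMG20B (21.7 and 10.6) and RCOR3 (28.0 and 13.9) were counted as decreased for H3K27ac. HMG20B is a DNA-binding subunit of the complex and RCOR3 is a paralog of RCOR1. The list's median log2 ratio was −0.64, beside −0.50 for all genes. Of 12 SIN3 partners, SAP18, a small subunit, was decreased for H3K27ac (17.9 and 6.81), and the median was −0.63. Of 11 other corepressors and regulators of REST protein, BTRC, which marks REST for degradation, was decreased for H3K27ac (25.6 and 12.7). CTDSP2, a phosphatase that acts with REST, was decreased for H3K18ac (10.5 and 4.91). Of 12 splicing factors beside SRRM4, none was counted as changed, and SRRM3, a paralog of SRRM4, had H3K27ac values of 7.34 and 4.14. HMG20B, RCOR3 and BTRC were just past the ratio of 2. After that rescaling, their log2 ratios were −0.62, −0.54 and −0.56 and that of CTDSP2 was −0.87, and only SAP18 stayed past the threshold, with −1.06.

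Of the 18 neuronal genes known to be repressed by REST, 9 had an H3K27ac promoter peak in C4-2B and 8 in C4-2BER, and 15 and 14 had an H3K18ac promoter peak. Of all 20033 genes, 14782 and 14868 had an H3K27ac promoter peak, and 17469 and 17061 an H3K18ac promoter peak. None was counted as increased for either mark, beside 3.49% of all genes for H3K27ac and 1.92% for H3K18ac. The list's median log2 ratios were −0.45 for H3K27ac and −0.21 for H3K18ac, beside −0.50 and −0.33 for all genes. The promoter of CHRNB2, a nicotinic receptor subunit, had an H3K27ac peak in C4-2B only (2.25). That of GRIA2, a glutamate receptor subunit, had an H3K18ac peak in C4-2B only (3.87). The strongest promoter of the list, that of GRIN1, an NMDA receptor subunit, had H3K27ac values of 28.9 and 22.4 and H3K18ac values of 8.94 and 11.8. That of VGF, a secreted neuropeptide precursor, had H3K27ac values of 18.5 and 12.7. SNAP25, a protein of vesicle fusion, had H3K27ac values of 3.11 and 1.96 and H3K18ac values of 3.55 and 4.08. CHGA, a granin of secretory granules, had no H3K27ac peak and H3K18ac values of 4.31 and 2.29. Of the 18 loci, 12 (66.7%) held a REST element match with at most 1 differing letter within 50 kb, beside 2.14% of all protein-coding loci, with CHRNB2, GRIA2, GRIN1, SNAP25 and CHGA among them. SRRM3, GRIN1, VGF, SNAP25 and CHGA were chosen for naming after their values were seen.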

How the data were processed

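The deposited files were 4 macs2 broad peak lists, 1 per mark and cell line. Per the study's methods and the submitters' processing notes, the authors trimmed reads with Trimmomatic, aligned them to GRCh38 with Bowtie2 (2.2.3 in the notes, another version in the methods), removed duplicates with Picard, merged biological replicates and called peaks. Whether the inputs served as the macs2 control is not given in the sources used here. Per the file format, the authors' values used here are the fold enrichment of a peak, a ratio to the background around it, and its −log10 q-value. Differential peaks of the study were not used here.

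From these lists, the peaks over each gene of GENCODE release 44 and 50 kb to each side, promoter values (2000 bp upstream to 500 bp downstream), merged regions and covered length were computed, and the REST element was searched in GRCh38. GRCh38 chromosome ends were checked against the lists, and 0 peaks ran past them. RefSeq sequences (GRCh38.p14) were matched by symbol. The calculations were tested on simulated data. Merged replicates allow no test, so all comparisons are descriptions, and counts of libraries behind them are 2 per list. The members and lists were chosen with earlier results of these data known. Named beside the members were list genes with an increased or decreased promoter, at most 8, the 3 genes most like REST and SRRM4 in promoter values, and neighbours with a peak on their promoter, and further genes were named as markers. Some marker genes are not reported here. Results were recomputed under 11 alternatives and under others chosen after seeing the data. Python 3.11.15, numpy 2.4.6, pandas 2.3.3 and matplotlib 3.10.9 were used.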

Additional observations from a re-analysis of the deposited data

How the results depend on the processing

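Values and counts were recomputed under 11 alternatives and under others chosen after seeing the data, which were fold enrichment times width, centring within 20 bins of promoter GC content, and stricter peaks at REST element matches. The log2 ratios of REST and SIN3A stayed below 0 for both marks under the 7 alternatives run on these ratios, in ranges of −1.06 to −0.20 and −0.71 to −0.15 for H3K27ac. That of REST for H3K27ac was −1.06, past the ratio of 2, as a mean weighted by overlapped length, and −0.20 as fold enrichment times width, which counts the wider C4-2BER peak. The signs for RCOR2 (−0.51 to 0.23 for H3K18ac, −0.18 to 0.38 for H3K27ac) and for RCOR1 H3K18ac (−0.49 to 0.04) depended on the alternative, and GC centring also turned that of RCOR2 H3K27ac (0.23). With rescaling by a robust line, 673 H3K27ac promoters were counted as decreased in place of 1657, and it moved the median log2 ratio of all promoters from −0.50 to −0.11. After rescaling, the H3K27ac ratio of REST was −0.40 and that of SIN3A −0.17.

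Region counts over the 5 loci, given as shared, C4-2BER only and C4-2B only, followed the peaks and the length searched. For H3K27ac they were 18, 2 and 5 with a fold enrichment of at least 4, 23, 6 and 2 where the −log10 q-value reached 5, 19, 11 and 7 with 10 kb to each side, and 16, 11 and 5 in the gene bodies alone. For H3K18ac they were 16, 2 and 2, then 23, 6 and 4. With 10 kb to each side, 41 were shared and 20 were in C4-2B only, and in the gene bodies 37 and 16. Fewer peaks or bases enter these counts by construction. Of REST element matches with at most 1 differing letter, 13 in C4-2B and 9 in C4-2BER lay under H3K18ac peaks of at least 4-fold enrichment, and 14 in C4-2B under those whose −log10 q-value reached 5. The covered H3K18ac length of RCOR2 changed direction with the flank, with log2 ratios of 0.15 at 50 kb, −0.74 at 10 kb and −0.95 in the gene body. Counts and lengths of single loci moved by over 1.5 times, or past a ratio of 2, in 25 of 40 cases with a fold enrichment of at least 4, 23 of 40 with the q-value, 19 of 39 at 10 kb, 21 of 39 in gene bodies and 3 of 30 where the peaks had to share 50% of the shorter one. The other promoter windows and the canonical TSS alone changed no call of the 5 members. The lists hold no read counts, so a weak site without a peak may carry the mark below detection.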
